A study of Mus musculus with 15 samples.

Results

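The genes described here are 10 genes by which mouse cells sense and answer a shortage of oxygen: Hif1a, Epas1, Vhl, Egln1, Egln2, Egln3, Vegfa, Bnip3, Ndrg1 and Adm. They were taken by gene symbol from a table of 47069 genes, and all 10 were found. The rule that takes them uses the symbols alone. RNA-Seq was run on single tubules microdissected from mouse kidney and labelled PTS2, the name used for the middle segment of the proximal tubule, and on whole kidney. All samples came from male C57BL/6 mice aged 2 months, and the labels name no agent or genetic change. There were 12 PTS2 libraries, in sets m1, m2 and m3 of 4 libraries each, numbered 1 to 4, and 3 whole kidney libraries. The labels state neither what a set or a number stands for nor which libraries share an animal, so p-values measure only the spread between these libraries. Values are TPM, a measure of transcript abundance scaled to transcript length and to a common library total, so that levels of different genes can be set side by side.

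Oxygen sensing in mammalian cells works through the stability of a transcription factor, the hypoxia-inducible factor (HIF). Its alpha subunits, encoded by Hif1a and Epas1, are made all the time. With oxygen present, the prolyl hydroxylases encoded by Egln1, Egln2 and Egln3 mark them, and the protein encoded by Vhl then directs them to degradation. When oxygen falls the alpha subunits escape this, join the partner encoded by Arnt and switch on target genes, among them Vegfa, Bnip3, Ndrg1, Adm and Egln3 itself. The kidney is a classical site of this system because oxygen tension falls steeply from cortex to medulla. Since the alpha subunits are controlled mainly as proteins, their mRNA levels do not report HIF activity.

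The libraries matched their labels in part. The TPM of each sum to the same total, and since they keep no record of sequencing depth, the depth behind each value is unknown. The summed level of 10 proximal tubule markers was 13360 to 19392 TPM in PTS2 and 11406 to 12566 TPM in kidney, but its markers were split. Slc27a2 averaged 9166 TPM in PTS2 against 4620 TPM in kidney. Of the 10 markers 2 were called higher (Slc27a2 and Slc7a13) and 3 lower. Slc4a4 was at 42.4% and Slc22a8 at 25.0% of kidney, and Slc5a2, the glucose transporter of the early proximal tubule, was at most 1.38 TPM in PTS2 against 621 TPM in kidney. Slc7a13, a late proximal tubule transporter, was at 1367 to 2141 TPM in PTS2 and 652 to 909 TPM in kidney. Marker sums of other cells were mostly far lower in PTS2: 8 endothelial markers summed to 26.8 to 108 TPM against 346 to 370 TPM, and 5 podocyte markers to 0.97 to 3.21 TPM against 91.6 to 114 TPM. The sum of 5 thick ascending limb markers was at most 55.8 TPM in 11 PTS2 libraries but 1441 TPM in m3 library 3, against 2425 to 2723 TPM in kidney. That library stood apart, and counts below were repeated without it. The macrophage marker sum was 23.7 to 77.2 TPM in PTS2 and 74.0 to 97.0 TPM in kidney, but Csf1r made up most of it in PTS2 (186% of kidney), while Cd68, Adgre1, C1qa and C1qb were at 8.04% to 15.9% of kidney and below it in 12 of 12 libraries. The 9 immediate early genes, which respond to tissue handling, summed to 34.7 to 57.7 TPM in PTS2 and 138 to 257 TPM in kidney, with Fosb listed at 0 in all 15 libraries; the part of handling in the results below was not tested.

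Of the 10 genes, 4 were lower in PTS2 than in whole kidney and 1 was higher (limma, Benjamini-Hochberg adjusted p under 0.05), while 5 did not pass. Both HIF alpha subunits were lower, Hif1a at 45% and Epas1 at 28.0% of the kidney mean, as were the secreted factors Vegfa, at 54.2%, and Adm, at 20.2%. The hydroxylase gene Egln3 was higher, at 167% of the kidney mean. Vhl, Egln1, Egln2, Bnip3 and Ndrg1 did not pass, with PTS2 means between 80.5% and 110% of kidney. Calls were common in this comparison: among the 12039 genes tested, 51.2% were called, 41.5% as lower and 9.68% as higher. On this scale the share of the 10 genes that was called was close to that of genes at large. The median log2 difference of the 10 genes was -0.21, beside -0.27 over all genes tested. The counts of 4 lower and 1 higher were the same without m3 library 3. With median-of-ratios rescaling of the libraries 4 genes were lower and 5 higher, where 46.8% of all genes were called, and with quantile normalization 4 and 3, where 53.5% were called.

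**Figure D1:**
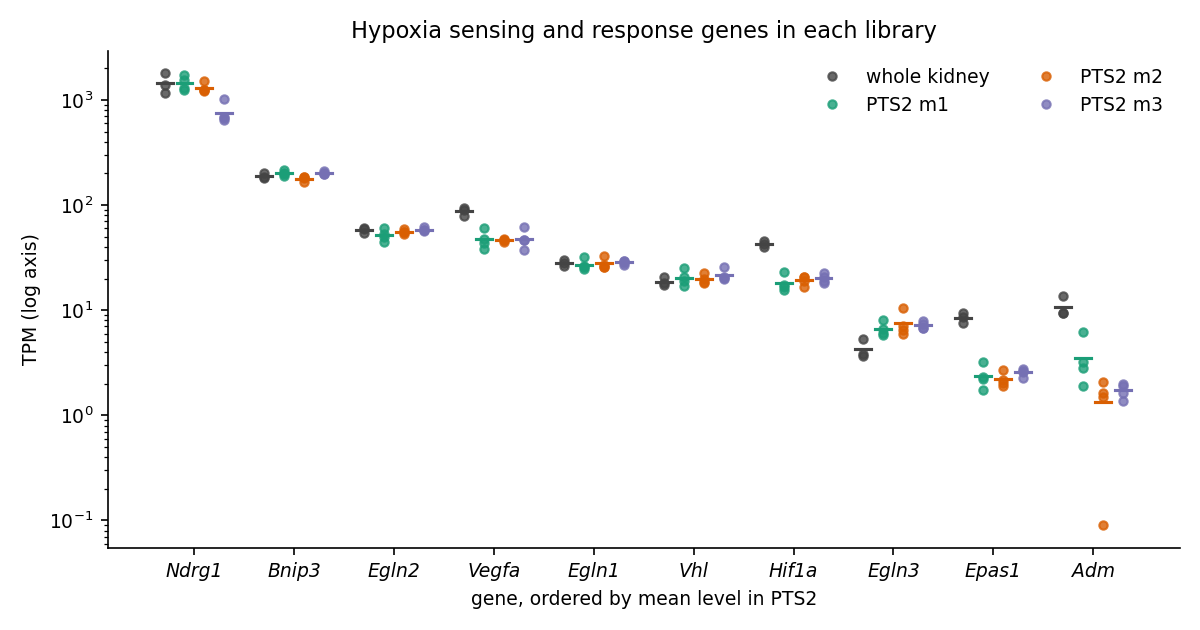
Level of each of the 10 genes in every library, in TPM on a log axis, for whole kidney and PTS2 sets m1, m2 and m3, 1 point per library and a bar at each group's mean. Hif1a, Epas1, Vegfa and Adm lie below kidney in 12 of 12 PTS2 libraries and Egln3 above it, while Ndrg1 in set m3 lies below m1 and m2.

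In PTS2 the order of mean levels was Ndrg1 (1169 TPM), Bnip3 (194 TPM), Egln2 (55.5 TPM), Vegfa (47.2 TPM), Egln1 (27.8 TPM), Vhl (20.6 TPM), Hif1a (19.2 TPM), Egln3 (7.13 TPM), Epas1 (2.37 TPM) and Adm (2.19 TPM). Neighbours in this order whose library ranges overlapped were Egln2 and Vegfa, Egln1 and Vhl, Vhl and Hif1a, and Epas1 and Adm. The other steps had no overlap between libraries. Ndrg1 was the 124th most abundant gene of the PTS2 libraries and Bnip3 the 820th, whereas Epas1 was the 9699th and Adm the 9870th. In whole kidney Hif1a, at 42.8 TPM, stood above Egln1 and Vhl, and Adm, at 10.8 TPM, above Epas1 and Egln3.

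Both alpha subunit genes were lower in PTS2. Hif1a (ENSMUSG00000021109; chromosome 12, 73901375 to 73947530, plus strand, GRCm38) encodes the subunit found in nearly all cell types. It was at 39.8, 42.8 and 45.7 TPM in the 3 whole kidney libraries, and at 15.7 to 23.3 TPM in the 12 PTS2 libraries, with a median of 19.0 TPM. The highest PTS2 library, m1 library 1, was still well below the lowest kidney library, so the groups did not overlap. The log2 difference was -1.12 ± 0.11 (SE, limma adjusted p = 2.92e-07) on the log2(TPM + 1) scale, and the ratio of the means was 2.22 in favour of kidney. Within PTS2 its level was even, with means of 18.3, 19.3 and 20.2 TPM for sets m1 to m3 (limma F test, adjusted p = 0.769).

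Epas1 (ENSMUSG00000024140; chromosome 17, 86753700 to 86833410, plus strand) encodes the second alpha subunit, HIF-2 alpha, known from endothelium and from the cells that make erythropoietin in the kidney. It was at 8.61, 9.34 and 7.52 TPM in kidney and at 1.74 to 3.20 TPM in PTS2, with a median of 2.29 TPM. The highest PTS2 library, m1 library 2, lay far below the lowest kidney library, so the groups did not overlap. The log2 difference was -1.50 ± 0.13 (SE, adjusted p = 6.67e-08), and the kidney mean was 3.58 times the PTS2 mean. With quantile normalization the log2 difference was -0.81 and still called. The ratio of Hif1a to Epas1 TPM was 5.09 ± 0.855 (SD, n = 3) in kidney and 8.31 ± 1.59 (SD, n = 12) in PTS2. Its ranges overlapped, because m1 library 2 had a ratio of 4.91 where kidney ran from 4.58 to 6.08. Erythropoietin itself (Epo) was listed at 0 in all 12 PTS2 libraries and averaged 0.0967 TPM in kidney. Endothelial marker RNA, at a median of 50.0 TPM in PTS2, was also lower than in kidney, and its part in the lower Epas1 level was not tested. In libraries of tissue, fewer cells of a type and less RNA per cell cannot be told apart.

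The hydroxylases and Vhl behaved differently from the factor they control. Vhl (ENSMUSG00000033933; chromosome 6, 113623959 to 113631633, plus strand) encodes the recognition subunit of the ubiquitin ligase for hydroxylated HIF. It was at 20.8, 17.2 and 18.0 TPM in kidney and at 16.9 to 25.9 TPM in PTS2, with a median of 19.96 TPM. The groups overlapped, with 1 PTS2 library below and 3 above all kidney libraries, and the log2 difference of 0.13 ± 0.12 (SE) did not pass (adjusted p = 0.373). Under the rescalings tried it did pass, at 0.40 with median-of-ratios rescaling and 0.54 with quantile normalization.

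Egln1 (ENSMUSG00000031987; chromosome 8, 124908587 to 124949324, minus strand) encodes the hydroxylase that does most of the oxygen sensing in normal tissue. It was at 28.0, 30.2 and 26.4 TPM in kidney and at 24.5 to 32.8 TPM in PTS2, with a median of 27.1 TPM. Egln2 (ENSMUSG00000058709; chromosome 7, 27158658 to 27166802, minus strand) encodes a nuclear hydroxylase. It was at 59.4, 60.0 and 54.7 TPM in kidney and at 44.9 to 62.5 TPM in PTS2, with a median of 56.1 TPM. Both genes overlapped kidney on either side. Their log2 differences were -0.02 ± 0.09 for Egln1 (SE, adjusted p = 0.851) and -0.07 ± 0.08 for Egln2 (SE, adjusted p = 0.538), and both turned positive under rescaling. Egln1 was then called higher in PTS2, at 0.26 with median-of-ratios rescaling (adjusted p = 0.00381) and 0.30 with quantile normalization (adjusted p = 0.001). Egln2 was called higher at 0.22 with median-of-ratios rescaling (adjusted p = 0.00481) and not called at 0.10 with quantile normalization.

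Egln3 (ENSMUSG00000035105; chromosome 12, 54178981 to 54203860, minus strand) encodes the hydroxylase that HIF itself induces most strongly in many cell types. It was at 3.81, 3.68 and 5.31 TPM in kidney and at 5.86 to 10.4 TPM in PTS2, with a median of 6.78 TPM. Every PTS2 library lay above every kidney library, the lowest being m1 library 4 and the highest m2 library 1. The log2 difference was 0.63 ± 0.15 (SE, adjusted p = 0.00197), and it was 0.86 with median-of-ratios rescaling and 1.39 with quantile normalization. Non-overlap in this direction was found in 5.76% of genes tested, and in the lower direction, as for Hif1a, Epas1, Vegfa and Adm, in 32% of them. The 3 hydroxylase genes summed to 90.5 TPM on average in both kidney and PTS2. Egln3 was 4.75% ± 1.22 (SD, n = 3) of that sum in kidney and 7.85% ± 0.923 (SD, n = 12) in PTS2, Egln2 was 64.1% and 61.4%, and Egln1 31.1% and 30.7%.

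**Figure D2:**
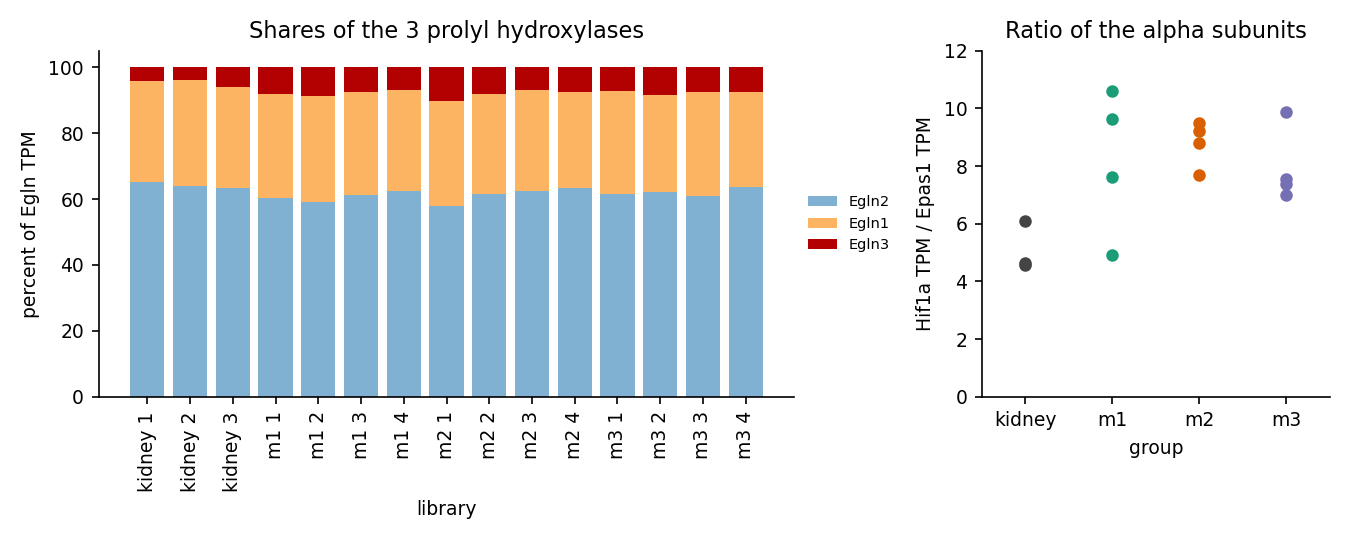
Left, Egln1, Egln2 and Egln3 as percent of their summed TPM in each library; right, the ratio of Hif1a to Epas1 TPM in each library by group, 1 point per library. Egln3 takes 6.86% to 10.1% of the sum in PTS2 and 3.92% to 6.15% in kidney, and the Hif1a to Epas1 ratio of m1 library 2 (4.91) falls within the kidney range.

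The target genes are introduced with the sequence before their start sites, since HIF binds a short core sequence there or in more distant elements. Sequences are the 250 bases before the RefSeq gene start (GRCm38.p6), printed 5′ to 3′ on the gene's strand. Capitals mark each match to ACGTG or GCGTG, the usual HIF core, on either strand (printed as CACGT or CACGC where it lies on the other strand). Overlapping matches share capitals. Adm is shown as a target that was lower in PTS2, Egln3 and Car9 as targets that were higher, and Bnip3 as one that did not pass. The windows are chr7:110627407-110627656 (plus strand) for Adm, chr12:54203875-54204124 (minus strand) for Egln3, chr4:43506776-43507025 (plus strand) for Car9 and chr7:138909507-138909756 (minus strand) for Bnip3.
Adm: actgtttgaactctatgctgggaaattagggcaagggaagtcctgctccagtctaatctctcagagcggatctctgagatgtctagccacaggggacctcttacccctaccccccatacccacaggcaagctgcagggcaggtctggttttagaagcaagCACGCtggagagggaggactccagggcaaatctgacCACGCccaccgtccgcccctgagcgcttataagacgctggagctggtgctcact
Egln3: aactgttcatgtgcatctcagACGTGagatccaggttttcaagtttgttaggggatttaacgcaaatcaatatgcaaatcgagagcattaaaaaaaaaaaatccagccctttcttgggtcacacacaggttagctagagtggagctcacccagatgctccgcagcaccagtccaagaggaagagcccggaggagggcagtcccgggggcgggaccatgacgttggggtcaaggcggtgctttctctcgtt
Car9: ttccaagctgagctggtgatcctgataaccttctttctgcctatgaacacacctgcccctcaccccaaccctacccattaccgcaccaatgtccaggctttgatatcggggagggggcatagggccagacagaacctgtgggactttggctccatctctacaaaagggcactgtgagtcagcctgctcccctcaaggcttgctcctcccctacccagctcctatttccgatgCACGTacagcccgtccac
Bnip3: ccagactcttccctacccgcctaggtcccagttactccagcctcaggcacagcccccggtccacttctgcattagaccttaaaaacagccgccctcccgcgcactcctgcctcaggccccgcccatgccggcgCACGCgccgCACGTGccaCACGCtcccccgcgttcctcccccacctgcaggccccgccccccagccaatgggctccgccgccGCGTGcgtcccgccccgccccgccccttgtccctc

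The Bnip3 window held 5 matches, the Adm window 2 and the Egln3 and Car9 windows 1 each. The match nearest the RefSeq start lay 35 bases before it in Bnip3, 54 in Adm, 18 in Car9 and 229 in Egln3. Gene positions elsewhere in this text come from GENCODE, and the annotations differ in some starts. There Car9 starts at 43506966, so its match lies inside that gene span. The first-listed Hif1a window, 73907617 to 73907866, also lies inside the Hif1a span given above. Of all 32851 such windows in the table, 16.6% held ACGTG, 28.2% held GCGTG and 38.6% held either, so a match is common. RefSeq windows were found for 8 of the 10 genes, and the first-listed window held a match in 6 of them and none in Vhl and Vegfa. Epas1 and Ndrg1 were not among the windows. A match describes these letters only, and HIF also acts through elements outside this window.

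Vegfa (ENSMUSG00000023951; chromosome 17, 46016993 to 46032369, minus strand) encodes the growth factor by which epithelial cells keep up the capillaries beside them. It was at 78.6, 89.5 and 93.0 TPM in kidney and at 37.1 to 61.5 TPM in PTS2, with a median of 46.8 TPM. The groups did not overlap, and the PTS2 libraries nearest to kidney were library 4 of m3 and library 4 of m1. The log2 difference was -0.88 ± 0.13 (SE, adjusted p = 2.67e-05). Podocytes are a well-known source of Vegfa, and their marker sum was at 1.81% of its kidney mean in PTS2, where Vegfa was at 54.2%. The part of other cells' RNA in this difference was not tested.

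Adm (ENSMUSG00000030790; chromosome 7, 110627661 to 110629820, plus strand) encodes adrenomedullin, a vasodilator peptide. It was at 13.7, 9.33 and 9.40 TPM in kidney and at 0.09 to 6.17 TPM in PTS2, with a median of 1.90 TPM. All PTS2 libraries were below kidney, but they were scattered: m1 library 4 was at 6.17 TPM and m2 library 1 at 0.09 TPM. The log2 difference was -1.99 ± 0.35 (SE, adjusted p = 0.000159). Across the alternatives tried it ran from -2.55 to -1.33 and was called in each in which the gene was tested. Adm had the widest spread of the 10 genes in PTS2, with a coefficient of variation of 67.0%, where the median over all 11300 genes tested was 17.8%. That median is not matched for level, and Adm had the lowest mean of the 10 genes in PTS2, where a value carries more error.

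Bnip3 (ENSMUSG00000078566; chromosome 7, 138890836 to 138909519, minus strand) encodes a protein of the outer mitochondrial membrane that marks mitochondria for autophagy. It was at 186, 182 and 204 TPM in kidney and at 166 to 216 TPM in PTS2, with a median of 197 TPM. The groups lay on top of each other, and the log2 difference was 0.02 ± 0.07 (SE, adjusted p = 0.796). With median-of-ratios rescaling it was 0.31 and passed. Bnip3 had the smallest spread of the 10 genes in PTS2, with a coefficient of variation of 7.04%.

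Ndrg1 (ENSMUSG00000005125; chromosome 15, 66929318 to 66969640, minus strand) encodes a cytoplasmic stress-response protein and is one of the most responsive hypoxia genes in many cell lines. It was at 1792, 1394 and 1172 TPM in kidney and at 649 to 1721 TPM in PTS2, with a median of 1241 TPM. The groups overlapped, with 4 PTS2 libraries below the lowest kidney library and 0 above the highest. Those 4 were the libraries of set m3. The log2 difference was -0.36 ± 0.26 (SE, adjusted p = 0.252).

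**Figure D3:**
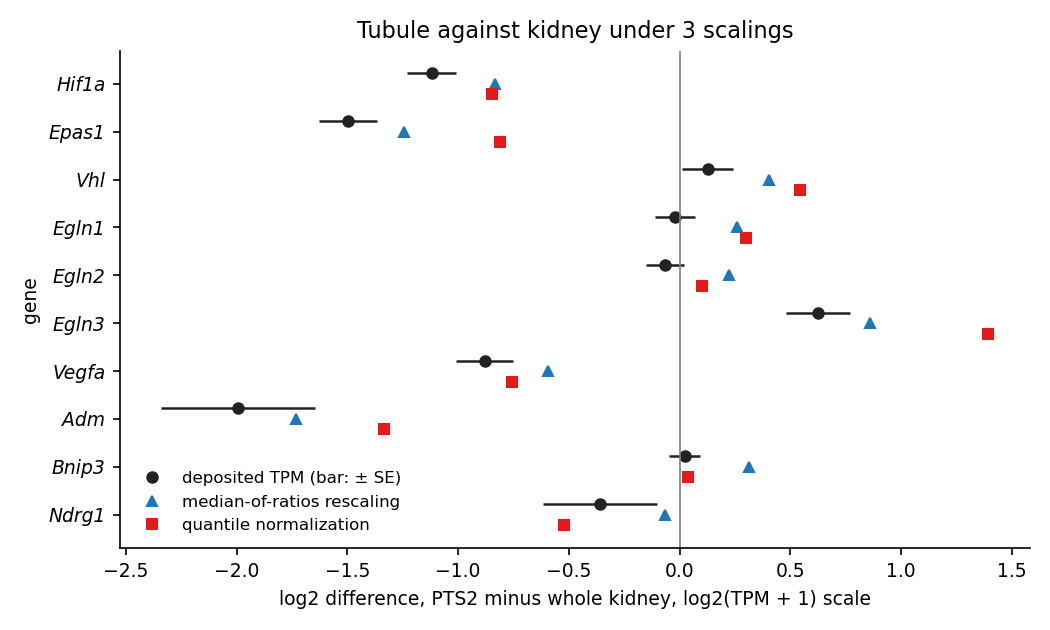
Log2 difference (PTS2 minus whole kidney, on log2(TPM + 1)) of each of the 10 genes for the deposited TPM (circle, bar ± SE), median-of-ratios rescaling (triangle) and quantile normalization (square). With the deposited TPM, Adm (-1.99), Epas1 (-1.50), Hif1a (-1.12) and Vegfa (-0.88) are lower, Egln3 (0.63) is higher, and the other 5 lie between -0.36 and 0.13.

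Among the PTS2 sets, Ndrg1 was the 1 gene of the 10 that differed. In set m1 it was at 1541, 1236, 1306 and 1721 TPM, in m2 at 1206, 1251, 1246 and 1503 TPM, and in m3 at 689, 649, 671 and 1012 TPM. Every m3 library lay below every m1 and m2 library, a pattern shown by 1.03% of the 11300 genes tested. The F test among sets gave an adjusted p of 0.00407 (limma), a call made for 3.02% of genes tested. The log2 difference of m3 from m1 was -0.95 ± 0.14 (SE, adjusted p = 0.0031), and from m2 -0.80 ± 0.14 (SE, adjusted p = 0.011). Calls in this direction were made for 0.938% and 0.805% of genes. Sets m2 and m1 did not separate, with a difference of -0.15 and an adjusted p of 0.724, where 0.54% of all genes were called. Without m3 library 3 the F test adjusted p was 0.0204, and the m3 to m2 contrast was lost in 1 of 18 alternatives, the fit with no filter on low values (adjusted p = 0.0596).

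The other 9 genes had F test adjusted p-values from 0.212 for Bnip3 to 0.991 for Vegfa. Bnip3 averaged 201 ± 11.2, 179 ± 8.63 and 202 ± 4.93 TPM for sets m1 to m3 (SD, 4 libraries each). Adm averaged 3.52 ± 1.85, 1.33 ± 0.86 and 1.73 ± 0.28 TPM in the same order, with an adjusted p of 0.239. Set m3 had the highest mean endothelial marker sum, 75.4 TPM against 49.5 TPM in m1 and 38.8 TPM in m2, with ranges that overlapped. The part of endothelial RNA in the Ndrg1 difference was not tested.

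By library number, Ndrg1 was again the 1 gene of the 10 that was called (limma with set as a term, F test adjusted p = 0.043), where 2.71% of all genes were called. Its mean was 1145, 1045, 1075 and 1412 TPM over the libraries numbered 1, 2, 3 and 4, and number 4 was highest in each of the 3 sets, as it was for 4.79% of genes tested. The log2 difference of number 4 from number 1 was 0.34 ± 0.09 (SE, adjusted p = 0.0483), with 1.69% of genes called higher in that contrast. That call was lost in 11 of 18 alternatives, with adjusted p from 0.011 to 0.816 over all of them. The F test call was lost in 10 of the 12 fits that left out 1 library, with no filter, with quantile normalization and without the set term, and it held without m1 library 1 and without m2 library 2. With all libraries, proximal tubule markers were also called by number: Slc34a1 (adjusted p = 0.0142), Slc4a4 (0.0116), Slc22a6 (0.0121) and Slc22a8 (0.0102). All were higher in number 4 than in number 1, by 0.70 to 1.78 on the log2 scale. With no filter or without the set term no gene had an F test call by number, so these calls were lost there. The other proximal tubule markers tested had no F test call, and Slc7a13 was lower in number 4 (-0.31, adjusted p = 0.0275). The part of these marker differences in the number calls here and below was not tested. Adm, at 1.12 TPM over the libraries numbered 1 and 3.39 TPM over those numbered 4, differed by 1.03 ± 0.26 and just missed (SE, adjusted p = 0.0508). The gap was uneven. Number 1 was at 1.89, 0.09 and 1.38 TPM in sets m1 to m3, and number 4 at 6.17, 2.08 and 1.91 TPM. The part of other cells' RNA in it was not tested.

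The genes whose profile over the 12 PTS2 libraries was most like that of Ndrg1, by the smallest root mean square difference of centred log2(TPM + 1) values among 6445 genes with at least 10 TPM, were Gpc1 (0.17), Polr3e (0.18) and Ces2c (0.22). The median over all genes compared was 0.51, and a gene with no variation at all would have had 0.46. Gpc1, a cell-surface proteoglycan gene, averaged 13.7, 11.7 and 7.39 TPM for sets m1 to m3. Polr3e, an RNA polymerase III subunit gene, averaged 36.4, 37.8 and 23.4 TPM in the same order. Ces2c, a carboxylesterase gene, averaged 853, 846 and 627 TPM.

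**Figure D4:**
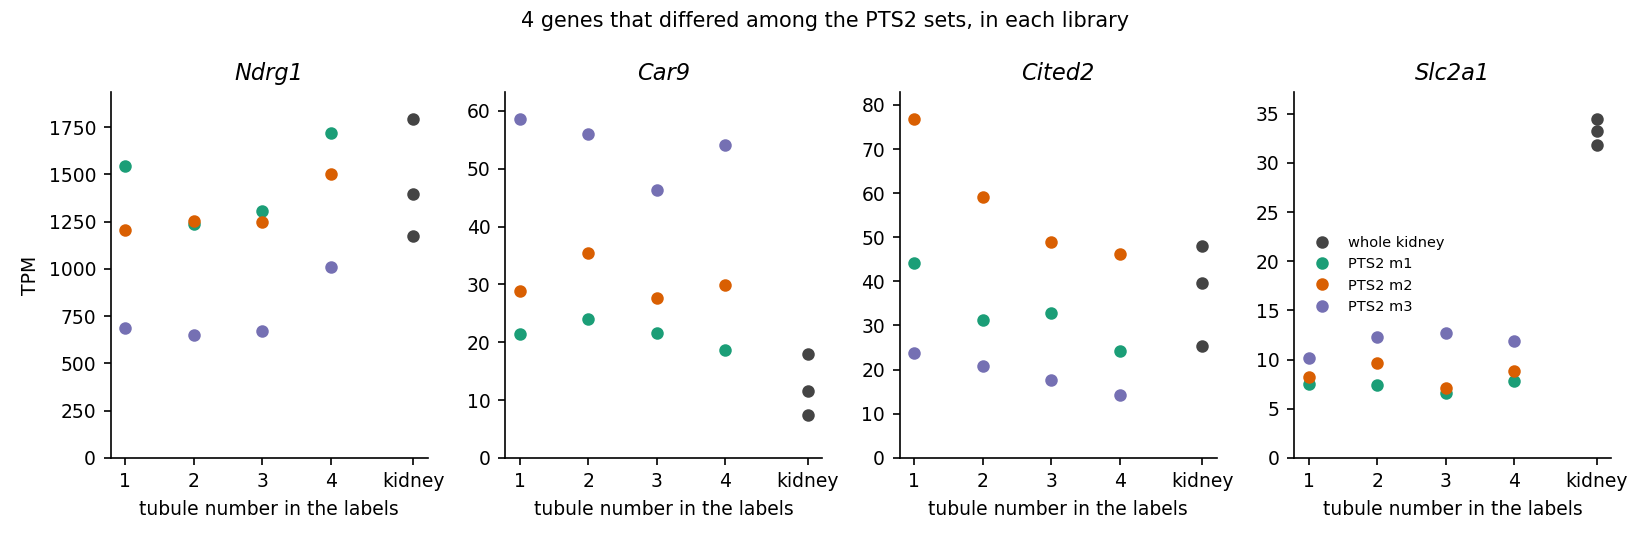
TPM of Ndrg1, Car9, Cited2 and Slc2a1 in each PTS2 library by its number, coloured by set, with the 3 whole kidney libraries at the right of each panel. Set m3 is lowest for Ndrg1 and Cited2 and highest among the tubules for Car9 and Slc2a1.

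The rest of the pathway was followed in 6 lists of 88 other genes, of which 70 were tested against whole kidney. Of these, 40 were lower in PTS2 and 5 higher, with a median log2 difference of -0.38, where 41.5% of all genes tested were lower and 9.68% higher. With median-of-ratios rescaling 25 were lower and 15 higher, beside 23.1% and 23.7% of all genes, and with quantile normalization 25 and 8, beside 18.9% and 34.6%. The counts for single lists below stand beside the same shares. These rescalings moved the median of all genes from -0.27 to 0.00 and 0.16, and the share of all called genes that were higher from 18.9% to 50.7% and 64.7%. Among the PTS2 sets 67 of these genes were tested and 5 called, where 3.02% of all genes were, and 2 of 65, Car9 and Cited2, without m3 library 3, where 1.86% were. With median-of-ratios rescaling 9 of 67 were called and with quantile normalization 7 of 67. The share of all genes called among sets under these rescalings is not given here. Values below are on the scale without rescaling.

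Of 14 sensing machinery genes tested, 7 were lower and 0 higher, with 4 and 3 under median-of-ratios rescaling and 1 and 1 under quantile normalization. Arnt, the HIF partner, was at 8.24 ± 2.22 TPM in PTS2 (SD, n = 12) and 16.1 ± 0.535 TPM in kidney (SD, n = 3), a log2 difference of -0.93 (adjusted p = 0.00257, and 0.056 with quantile normalization). The coactivator genes Ep300 and Crebbp were at 55.2% and 60.1% of kidney, both called, but with quantile normalization their log2 differences were 0.03 and 0.21 and not called. Cited2, which encodes an inhibitor that competes with HIF for these coactivators, did not differ from kidney beyond its spread (adjusted p = 0.752). It did differ among sets, with 33.1 ± 8.27, 57.7 ± 13.9 and 19.1 ± 4.08 TPM for sets m1 to m3 (SD, 4 libraries each, adjusted p = 0.00239), and by number (adjusted p = 0.0119). Its contrast of m3 with m2 passed (adjusted p = 0.000993), and that of m2 with m1 did not (adjusted p = 0.128). The contrast of m3 with m1 did not pass (adjusted p = 0.0643), but did with median-of-ratios rescaling (0.0257) and quantile normalization (0.0271). The Cited2 call by number was lost with no filter and without the set term. Hsp90aa1, a chaperone gene of the alpha subunit, was called among sets (adjusted p = 0.0241), but not without m3 library 3 (adjusted p = 0.0509).

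Of 14 glycolytic targets tested, 9 were lower and 1 higher, with 5 and 3 under median-of-ratios rescaling and 9 and 2 under quantile normalization. Ldha, for lactate dehydrogenase A, was the 1 that was higher, at 2104 ± 112 TPM against 1618 ± 86.5 TPM in kidney, a log2 difference of 0.38 (adjusted p = 7.4e-05). On the log2(TPM + 1) scale the 3 with the largest decreases were Hk1, for hexokinase, at a median of 0.545 TPM in PTS2 against 46.1 TPM in kidney, Slc2a1, for the glucose transporter GLUT1, at 27.6%, and Pdk1, which restrains pyruvate oxidation, at 30.5% of kidney. The highest Hk1 value, 10.1 TPM, was in m3 library 3, the library with thick ascending limb RNA. Slc2a1 differed among sets, with means of 7.32, 8.47 and 11.7 TPM for sets m1 to m3 (adjusted p = 0.0223), but not without that library (adjusted p = 0.0935) or with quantile normalization (adjusted p = 0.0647). Pfkp, for a phosphofructokinase, was called by number (adjusted p = 0.0106), with means of 34.4, 30.5, 23.3 and 10.7 TPM for numbers 1, 2, 3 and 4. The Pfkp call by number was lost with no filter and without the set term.

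Of 21 other targets tested, 11 were lower and 1 higher, with 6 and 4 under median-of-ratios rescaling and 5 and 3 under quantile normalization. Car9, for a carbonic anhydrase often used as a hypoxia marker, was the 1 that was higher. It was at 7.38, 18.0 and 11.6 TPM in kidney, at 18.6 to 24.1 TPM in m1, 27.7 to 35.4 TPM in m2 and 46.4 to 58.6 TPM in m3. The sets did not overlap with each other or with kidney, and m3 lay above every m1 and m2 library, as in 2.63% of genes tested. The log2 difference from kidney was 1.42 ± 0.32 (SE, adjusted p = 0.00141) and the F test among sets gave an adjusted p of 5.38e-05. The contrasts of m3 with m1 (adjusted p = 3.31e-05) and with m2 (adjusted p = 0.00113) passed. That of m2 with m1 did not (adjusted p = 0.074). An antisense gene, Gm12454, overlaps Car9 exons and averaged 18.6 TPM in the tubules and 7.34 TPM in kidney. The cDNA kit named in the labels does not mark strand, so reads from the stretches where the genes overlap cannot be told apart. Among sets Gm12454 was not called (adjusted p = 0.763). Car12, for another carbonic anhydrase, was at 2.70% and Angpt2, a vessel growth factor gene, at 4.34% of kidney, both called lower, and Ankrd37 at 33.8% was called except with quantile normalization (adjusted p = 0.291). Hmox1, for heme oxygenase, did not differ from kidney (adjusted p = 0.699) and was lower in m3, at 36.7 TPM, than in m1, at 53.9 TPM (adjusted p = 0.0177), while m2 was at 49.9 TPM and its contrast with m3 did not pass (adjusted p = 0.0622). The F test among sets gave an adjusted p of 0.0281, and 0.107 without m3 library 3.

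Of the VEGF and adrenomedullin partners 8 were tested, and 7 were lower and 0 higher, with a median log2 difference of -2.04. Under median-of-ratios rescaling 6 were lower and 0 higher, and under quantile normalization 6 and 1. The receptors stood out: Kdr, the main VEGF receptor gene, was at 17.6%, Calcrl, the adrenomedullin receptor gene, at 8.83%, and its partner Ramp2 at 17.0% of kidney. Ramp3, of the same list, was at 14.5 TPM in PTS2 against 19.9 TPM in kidney (73.0%), with groups that overlapped. Kdr, Calcrl and Ramp2 are genes of vessel lining, and the endothelial marker sum was at 15.3% of kidney, with 7 of 7 tested markers lower. Its part in these differences was not tested.

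Of 11 mitophagy genes tested beside Bnip3, 5 were lower and 3 higher, with 3 and 5 under median-of-ratios rescaling and 3 and 1 under quantile normalization. The cargo receptor gene Sqstm1 (129% of kidney), Map1lc3a (123%), which encodes a coat protein of autophagosomes, and Phb2 (112%), a mitochondrial inner membrane gene, were higher. Sqstm1 and Phb2 were not called with quantile normalization. Optn, at 46.1%, Gabarapl1, at 62.0%, and the kinase gene Ulk1, at 65.5%, were lower, and Gabarapl1 alone of these 3 was called under both rescalings. In the NDRG family, Ndrg3 was lower, at 71.3% of kidney (adjusted p = 0.000906), Ndrg2 was not called, and Ndrg4 was too low to be tested.

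**Figure D5:**
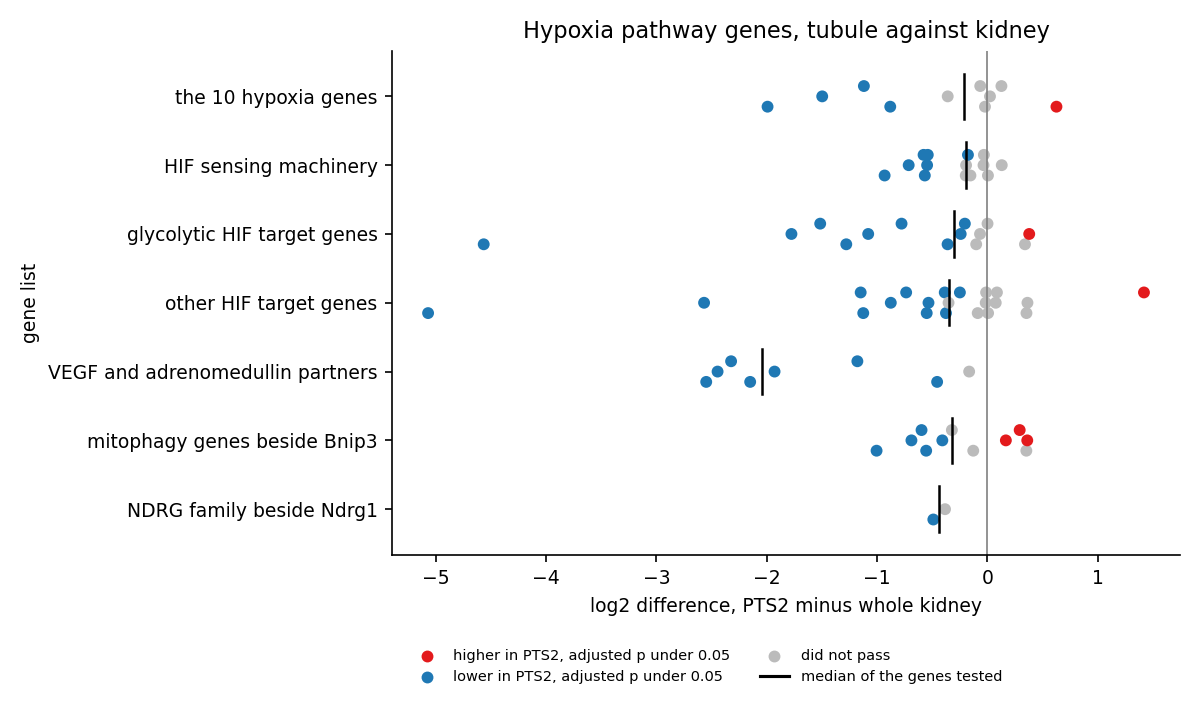
Log2 difference (PTS2 minus whole kidney) of each tested gene in the 10 genes and the 6 pathway lists, 1 point per gene, coloured by call, with each list's median as a bar. The VEGF and adrenomedullin partners have the lowest median (-2.04), and the other lists lie between -0.44 and -0.20.

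Over the 12 PTS2 libraries the spread of the 10 genes, as coefficients of variation, ran from 7.04% for Bnip3 through 8.69% for Egln2, 9.33% for Egln1, 12.5% for Hif1a, 13.0% for Vhl, 15.4% for Vegfa, 17.3% for Epas1 and 17.5% for Egln3 to 30.1% for Ndrg1 and 67.0% for Adm. The median over all genes tested, which is not matched for level, was 17.8%, and of the 10 genes Ndrg1 and Adm were above it.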

How the data were processed

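RNA-Seq was run on polyA RNA of 12 single PTS2 tubules and 3 whole kidney samples; per the labels' protocols RNA was extracted with a Zymo kit and amplified with the SMART-Seq V4 Ultra Low Input kit. Per the submitters' processing notes the tools were STAR 2.5.1b and RSEM 1.2.31, with genome build GRCm38.p5; the annotation release is not given in the sources used here. The authors deposited 1 table of TPM per gene and library; its 4 columns of means and standard errors were not used. Depth cannot be recovered from TPM, so no counting error or count test is given, and a low value carries more error than the text can show.

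From the TPM, log2(TPM + 1) was fitted with limma 3.58.1 in R 4.3.3 (eBayes with trend) over all genes averaging 1 TPM or more in the libraries fitted, with Benjamini-Hochberg adjustment over all genes tested and a threshold of 0.05. The pseudocount of 1 makes differences of low genes smaller. PTS2 against kidney had the set as a correlated block (correlation 0.0669); sets were compared by an F test and pairwise contrasts, and library numbers with the set as a term. The fits were tested on simulated data. Gene positions come from GENCODE M21 (GRCm38), whose IDs matched 46488 of 47069 genes, and promoter windows from RefSeq (GRCm38.p6). Summaries and figures used Python 3.11.15 with numpy 2.4.6, pandas 2.3.3 and matplotlib 3.10.9.

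Beyond the 10 genes, those named were, from each of the 6 pathway lists, up to 3 per direction against kidney with an adjusted p under 0.05, no overlap of the groups and the largest differences, and up to 2 per list among sets and by number with the smallest p; for a gene of the 10 called among sets, the 3 genes nearest in profile. Epo, the endothelial, podocyte and other marker values, Gm12454, Slc5a2, Slc7a13, Fosb, Ramp3, Ndrg2 and Ndrg4 were named outside that rule, after their values were seen. The 10 genes, the lists and the tests were chosen with earlier results of these data known. Alternatives were a pseudocount of 0.1, no filter or one at 10 TPM, rescaling by median of ratios or by quantiles, no within-set correlation, 1 mean per set, the library number as a block, no set term, and each library left out in turn.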

Additional observations from a re-analysis of the deposited data

Results flagged for a closer look

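A library was set apart from the other 3 of its set, by a gap to its nearest neighbour larger than Dixon's 95% limit for 4 values, in 11 of 126 groups examined, where chance gives about 6.3. Of these, 4 were among the 30 groups of the 10 hypoxia genes. Vhl was at 25.9 TPM in m3 library 2, where the next was 20.5 TPM, and Egln2 at 62.5 TPM in m3 library 4, where the next was 57.5 TPM. Ndrg1 was at 1503 TPM in m2 library 4 (next 1251 TPM) and at 1012 TPM in m3 library 4 (next 689 TPM).

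Among the other pathway genes, Ep300 was at 4.28 TPM and Hmox1 at 54.1 TPM in m2 library 1, Hk1 at 10.1 TPM in m3 library 3, Pfkp low at 9.41 TPM in m3 library 4, and Kdr low at 0.3 TPM in m1 library 2. The thick ascending limb marker sum was 1441 TPM in m3 library 3 (next 17.1 TPM) and 55.8 TPM in m1 library 4 (next 10.6 TPM).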

How the results depend on the processing

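Of 617 single values recomputed under the alternatives, 572 kept their direction and side of the threshold, 12 lost their call, 8 gained one and 25 changed sign. Hif1a, Epas1, Egln3, Vegfa and Adm kept their call in every alternative in which they were tested. With a mean of at least 10 TPM 7 of the 10 genes were tested and 2 called (Hif1a and Vegfa). Epas1, Egln3 and Adm, called on the deposited scale, were not tested under that filter. The share of all genes called under it is not given here, so these calls have no background beside them. With median-of-ratios rescaling 9 were called, where 46.8% of all genes were. The call by number fell to 0 with no filter, with quantile normalization and without the set term, and was 0 to 1 with 1 library left out.

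Over all genes, PTS2 against kidney gave 9399 calls with no filter and 3113 at 10 TPM. With no filter, sets gave 196, m3 against m1 178, m3 against m2 111, numbers 0 and number 4 against 1 175 calls; without the set term the last pair gave 0 and 67. The count at an unadjusted p under 0.05 by number was 2387 in the limma fit reported. Sets m2 and m1 gave 105 with median-of-ratios rescaling and 107 with quantile normalization. Leaving out 1 library gave 197 to 563 among sets, 37 to 135 for m2 against m1, 160 to 771 for m3 against m1, 119 to 313 for m3 against m2, 75 to 507 by number and 249 to 757 for number 4 against 1. The lowest of these came, in that order, without m3 library 1, m2 library 2, m3 library 3, m2 library 2 or m3 library 1, m1 library 4 and m2 library 1, and the highest of the first 3 without m1 library 1. In m3 against m1, 70.4% of calls were higher, and 54.6% and 52.8% under the rescalings; for number 4 against 1 it was 35.5%, and 46.0% under median-of-ratios rescaling.

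With the replicate block (library number as a term) 888 genes were called among sets, 307 for m2 against m1, 838 for m3 against m1 and 416 for m3 against m2; no call of the 10 genes changed. Same-numbered libraries correlated at 0.143 on average (0.0254 to 0.273), over 0.1 in 7 of 12 pairs, and 10 of 12 libraries correlated best with their own number, a hint from the data only. The 36 other pairs correlated at -0.0481 on average (-0.238 to 0.148), so the ranges overlapped. Correlations were taken on deviations from each set's mean, which ties both averages together. A positive average in same-numbered pairs makes that of the other pairs negative, so the latter is not a separate result.

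The 25 sign changes were in values not called on the deposited scale, and 3 of them became calls: Egln1 under both rescalings and Egln2 with median-of-ratios rescaling. Against kidney, median-of-ratios rescaling and quantile normalization gave 0.26 and 0.30 for Egln1 and 0.22 and 0.10 for Egln2; leaving out 1 library gave -0.067 to 0.027 for Egln1 and -0.0085 to 0.073 for Bnip3. For m3 minus m1 the rescalings gave -0.00012 and -0.022 for Vhl, -0.010 and -0.029 for Egln1, -0.060 and -0.056 for Vegfa, -0.082 and -0.052 for Bnip3, and quantile normalization -0.0091 for Egln3; leaving out 1 library gave -0.0035 to 0.18 for Vhl, -0.10 to 0.15 for Vegfa and -0.022 to 0.041 for Bnip3. For number 4 minus 1, median-of-ratios rescaling gave 0.011 for Egln2 and 0.018 for Bnip3, and leaving out 1 library -0.14 to 0.031 for Egln2. Adm by number passed under 5 alternatives, with adjusted p down to 0.0323. The causes were not tested.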
